A study of Sus scrofa with 8 samples.

Results

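Solute carrier genes of 11 families that exchange ions or carry metals were described by their H3K27ac in pig pgEpiSC and pEF. They were chosen by symbol: every protein-coding gene on chromosomes 1 to 18 whose symbol in pig RefSeq (Sscrofa11.1) begins with SLC4A, SLC5A, SLC8A, SLC9A, SLC12A, SLC20A, SLC24A, SLC26A, SLC30A, SLC39A or SLC41A. This gave 88 of 15689 protein-coding genes with a symbol on those chromosomes. A further 2 genes with these symbols lie on chromosome X and 1 is unplaced. The set was proposed with acetylation values of these libraries in view, so every value below is a description and none carries a test. SLC9A3R1, SLC9A3R2 and SLC4A1AP share a symbol stem with the exchangers without being carriers themselves: the first pair encode scaffold proteins that hold transporters at the membrane, and SLC4A1AP encodes kanadaptin.

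The pgEpiSC group holds stem cells of the pre-gastrulation epiblast, taken at embryonic day 10 per the labels, and the pEF group holds embryonic fibroblasts of day 30. The H3K27ac libraries are numbered 1 and 4 for pgEpiSC and 1 and 2 for pEF, 2 for each type, and each had its own input, which is chromatin sequenced without pull-down. No genetic change or treatment is named in the labels for either group. The labels do not say whether the libraries of a type come from separate lines, animals or cultures, so the spread between them may be technical. Cell type, stage and tissue of origin differ together between the groups and cannot be told apart.

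Solute carriers are membrane proteins that move ions and small molecules down or against a gradient. SLC39 proteins (ZIP) bring zinc and related metals into the cytosol and SLC30 proteins (ZnT) move zinc out of it, so the 2 families act in opposite directions. SLC9 and SLC4 proteins exchange protons and bicarbonate and set intracellular pH, SLC8 and SLC24 proteins extrude calcium in exchange for sodium, and SLC12 proteins carry chloride together with sodium or potassium and set cell volume. H3K27ac is a histone mark of active promoters and enhancers, and it was read here from lists of islands, the intervals in which a caller found ChIP reads to be dense.

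The measure was acetylated length, the kb covered by islands in a gene body with 10 kb on either side. A difference is the mean log2(kb + 1) of pgEpiSC minus that of pEF, with SE over n = 2 libraries a type, and paired values are, where not named, in the order pgEpiSC 1 and 4, then pEF 1 and 2. A gene was called when both libraries of a type lay on 1 side of both libraries of the other and the difference was at least 1, which is 2-fold. Such a call is no test: 2 libraries against 2 allow no two-sided exact permutation p below 0.333. Where a library is at 0 kb a log2 difference depends on the added 1 kb, and for genes at 0 kb in both libraries of a type with all islands in this window the lengths are given in its place.

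The 2 types' islands differ in kind, and this touches every length below. ChIP reads in islands ranged from 29679982 to 46383051 per library. Islands covered 397 and 401 Mb in pgEpiSC at a median of 1.79-fold and 1.67-fold over input, and 265 and 267 Mb in pEF at a median of 3.40-fold and 3.45-fold, with the fold taken from the authors' lists. At least 2-fold enrichment was reached by 36.2% and 27.5% of pgEpiSC islands and by 84.5% and 85.6% of pEF islands. Lengths are therefore given for all islands and, for many of the genes, also for islands of at least 2-fold, called 2-fold islands below. How much of the difference in enrichment comes from the pull-downs and how much from the cells cannot be told apart.

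Acetylated length split these carriers in both directions, and which type held more of them depended on the island set. With all islands, 31 of the 88 genes (35.2%) were called higher in pgEpiSC, beside 34.2% of all genes, and 18 (20.5%) were called higher in pEF, beside 11.7%. With 2-fold islands, 17 (19.3%) were higher in pgEpiSC, beside 11.6%, and 33 (37.5%) were higher in pEF, beside 30.2%. The median difference over the 88 genes was 0.36 with all islands and -0.49 with 2-fold islands, and over all genes it was 0.49 and -0.29. Centring each library on its median gene, which removes a shift of 0.64 on the log2 scale, left 21 of the 88 on the pgEpiSC side, beside 20.9% of all genes, and 22 on the pEF side, beside 22.0%.

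Part of the calls were the same in both island sets, which leaves out those that islands below 2-fold decide. On the pgEpiSC side there were 17 such genes, beside 11.4% of all genes, and on the pEF side 15 (17.0%), beside 11.1%. SLC12A7 and SLC12A8 were among the 3 genes that turned from higher in pgEpiSC with all islands to higher in pEF with 2-fold islands, which is 3.41% of the genes, beside 3.05% of all genes. SLC30A10, SLC5A12 and SLC5A4 had no island in any library, also 3.41%, and 3.40% of all genes had none.

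**Figure D1:**
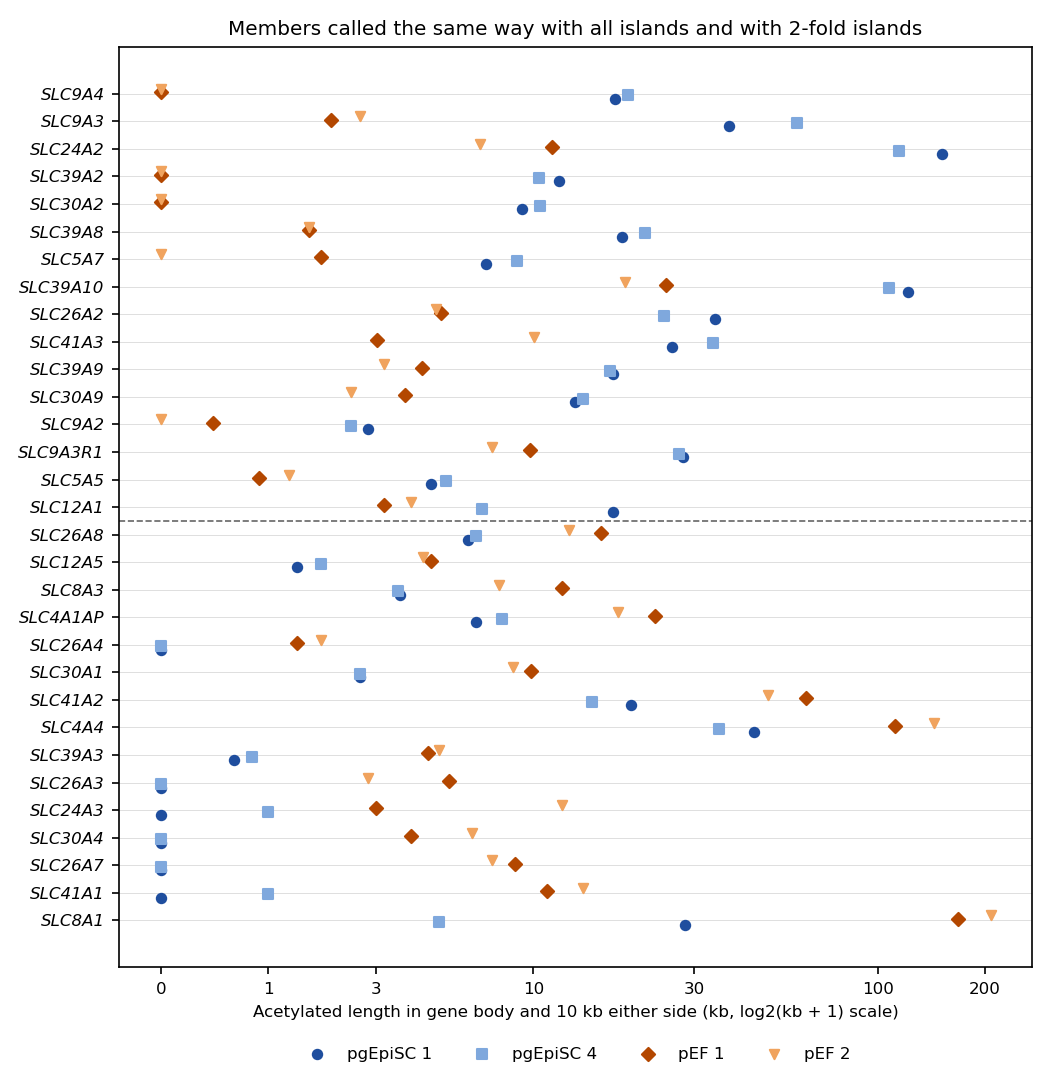
Acetylated length in kb, on a log2(kb + 1) axis, of 31 of the 32 genes called the same way with all islands and with 2-fold islands, 1 point per library, with genes higher in pgEpiSC above the dashed line and genes higher in pEF below it. SLC9A4, SLC39A2 and SLC30A2 sit at 0 kb in both pEF libraries, and SLC26A4, SLC26A3, SLC30A4 and SLC26A7 sit at 0 kb in both pgEpiSC libraries.

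**Figure D2:**
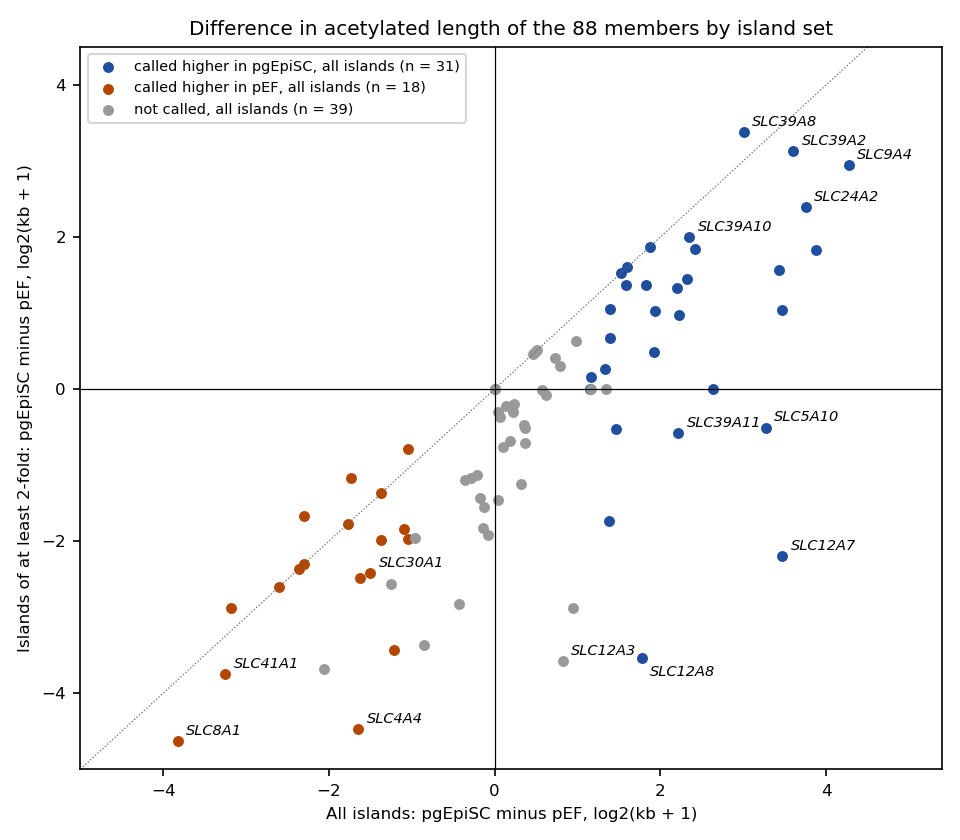
Difference between the types of each of the 88 genes, log2(kb + 1) in pgEpiSC minus pEF, with all islands on the x axis and 2-fold islands on the y axis, coloured by the call with all islands (31 higher in pgEpiSC, 18 higher in pEF, 39 not called). Most points lie under the dotted diagonal, and SLC12A7 and SLC12A8 lie to the right of 0 and below it.

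Among the zinc importers of the SLC39 family, 6 of 14 genes were called higher in pgEpiSC and 1 in pEF, and with 2-fold islands 4 and 2. The shares over all genes were 34.2% and 11.7%, and 11.6% and 30.2% with 2-fold islands. SLC39A10, which encodes ZIP10, an importer at the cell surface, was covered over 121 and 107 kb in pgEpiSC, compared with 24.8 and 18.8 kb in pEF (difference 2.35 ± 0.21). Its 2-fold islands gave 96.8 and 67.2 kb against 20.2 and 18.8 kb, so both island sets kept the pgEpiSC libraries far above the pEF ones. The longest island there spanned 70.6 kb in pgEpiSC 1 (chr15:99567001-99637600, 7625 ChIP and 2677 input reads) and 47.6 kb in pgEpiSC 4 (chr15:99583801-99631400, 6752 and 1839 reads), and both reached a gene end. In pEF the longest islands were 9.8 and 6.2 kb and lay inside the gene (chr15:99616401-99626200 and chr15:99617001-99623200). Coordinates are 1-based as the lists give them, and no build is named in the labels or the lists.

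The other SLC39 genes with longer acetylation in pgEpiSC included both ordinary importers and carriers of manganese. SLC39A2, a zinc importer, had 12.0 and 10.4 kb in pgEpiSC, and pEF had none. SLC39A8, which carries manganese as well as zinc, had 18.4 and 21.6 kb against 1.6 and 1.6 kb (difference 3.01 ± 0.11), and 2-fold islands gave 14.2 and 17.6 kb against 0 and 1.6 kb. SLC39A9, a carrier of the secretory pathway, had 17.4 and 17.0 kb against 4.37 and 3.2 kb, but its 2-fold call ended without pgEpiSC 1 (0.71) and without pEF 2 (0.84). SLC39A11 had 125 and 153 kb against 33.8 and 24.8 kb, yet its 2-fold islands, at 28.4 and 12.6 kb against 33.8 and 24.8 kb, no longer put pgEpiSC above pEF. SLC39A4, the zinc importer of the gut, had 13.9 and 14.3 kb against 7.32 and 4.52 kb, and its call ended without pEF 2 (0.86) and with 2-fold islands (0.16).

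SLC39A3, a plasma membrane zinc importer, was the 1 SLC39 gene higher in pEF with all islands, at 0.6 and 0.8 kb against 4.6 and 5.0 kb (difference -1.77 ± 0.10). All its islands were at least 2-fold, so the values were the same in both sets. With 50 kb on either side of the gene its difference turned to 0.87, and within the gene body it was -0.55, so the call rested on islands close to the gene but outside it. SLC39A12, a zinc importer known from brain, was higher in pEF with 2-fold islands only, at 0 and 0 kb against 14.2 and 9.8 kb.

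The remaining 6 SLC39 genes were not called in either set. SLC39A6, whose product ZIP6 pairs with ZIP10, had 3.2 and 5.4 kb against 2.6 and 2.8 kb, all in 2-fold islands. SLC39A14, a carrier of manganese, iron and zinc, stood just under the limit at 50.1 and 52.7 kb against 26.0 and 25.0 kb (difference 0.98 ± 0.04). The 2 genes just past the limit were SLC9A5 and SLC26A8, each at -1.05. SLC39A1, SLC39A5, SLC39A7 and SLC39A13 had differences between 0.10 and 0.62.

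Of the zinc exporters of the SLC30 family, 3 of 10 genes were called in each direction. With 2-fold islands 2 were higher in pgEpiSC and 4 in pEF. Over all genes the shares were 34.2% and 11.7% with all islands, and 11.6% and 30.2% with 2-fold islands. SLC30A1, the exporter of the cell surface, had 2.6 and 2.6 kb in pgEpiSC against 9.82 and 8.62 kb in pEF (difference -1.50 ± 0.08). Its 2-fold islands gave 2.6 and 0 kb against 9.82 and 8.62 kb. In the gene body alone the difference was -0.38, so most of the extra length lay in the flanks. The end island at SLC30A1 held 1661 ChIP and 279 input reads in pEF 1 (chr9:131627601-131635600) and 275 and 108 reads in pgEpiSC 1 (chr9:131632401-131635000).

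SLC30A4, which loads zinc into endosomes and the Golgi, had 4.0 and 6.4 kb in pEF and none in pgEpiSC, all in 2-fold islands. With 50 kb on either side its difference was 0.029. SLC30A3, the zinc carrier of synaptic vesicles, had 9.2 and 1.4 kb in pEF and none in pgEpiSC, of which 9.2 and 0 kb were 2-fold. The pEF libraries thus differed more from each other there than pEF 2 did from pgEpiSC.

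SLC30A2, which moves zinc into vesicles of secretory cells, showed the reverse, with 9.24 and 10.4 kb in pgEpiSC, where pEF had none. Its 2-fold islands were short, at 2.6 and 1.44 kb, and in the gene body alone the difference fell to 0.62. SLC30A9, linked to zinc export from mitochondria, had 13.4 and 14.1 kb against 3.8 and 2.4 kb (difference 1.87 ± 0.25), all in 2-fold islands. SLC30A8, the zinc carrier of insulin granules, had 6.8 and 12.8 kb against 1.8 and 0 kb, and none of this was in 2-fold islands. SLC30A5, SLC30A6 and SLC30A7, carriers of the secretory pathway, were not called with all islands, with differences from -0.08 to 0.36. SLC30A5 and SLC30A7 were called higher in pEF with 2-fold islands, at 3.0 and 1.4 kb against 8.0 and 5.0 kb and at 4.4 and 3.6 kb against 19.2 and 16.6 kb. The SLC30A5 call ended without pgEpiSC 4 (-0.88) and without pEF 1 (-0.95).

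All 3 magnesium carriers of the SLC41 family were called, in both island sets, and not in 1 direction. With all islands 34.2% of all genes were called higher in pgEpiSC and 11.7% in pEF, and with 2-fold islands 11.6% and 30.2%. SLC41A1, a plasma membrane magnesium exchanger, had 0 and 1.0 kb in pgEpiSC against 11 and 14.2 kb in pEF (difference -3.25 ± 0.53). An end island in pEF was enriched 12.9-fold over input in pEF 1 (chr9:66497401-66501000, 1374 ChIP and 139 input reads) and 10.9-fold in pEF 2. In pgEpiSC 4 the end island was 1.23-fold with 101 ChIP and 69 input reads. SLC41A2 had 19.6 and 15 kb against 62.4 and 48.8 kb (difference -1.63 ± 0.25), and its 2-fold islands gave 4.2 and 9.6 kb against 39.0 and 42.2 kb. SLC41A3, linked to magnesium release from mitochondria, had 25.8 and 33.8 kb against 3.03 and 10.03 kb (difference 2.20 ± 0.75). Its 2-fold call ended without pEF 1 (0.33).

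The sodium-calcium exchangers of the SLC8 family included the member with the most negative difference. SLC8A1, which encodes NCX1, the exchanger of heart and many other cells, had 28.2 and 5.0 kb in pgEpiSC against 168 and 207 kb in pEF (difference -3.82 ± 1.15). The pgEpiSC libraries held 7 and 1 islands there and the pEF libraries 25 and 25, spread over the gene. Nearly all pEF length was in 2-fold islands, at 159 and 188 kb, against 7.2 and 5.0 kb in pgEpiSC. The longest pEF 2 island spanned 31.6 kb (chr3:100119601-100151200, 7443 ChIP and 1101 input reads). Both pgEpiSC libraries had an island near chr3:100079001-100084600, at 2.96-fold in pgEpiSC 1 and 2.81-fold in pgEpiSC 4. SLC8A1 had no other gene in its window.

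SLC8A3, which encodes NCX3 of nerve and muscle, had 3.67 and 3.59 kb against 12.2 and 7.8 kb (difference -1.22 ± 0.29), and its 2-fold islands gave 0 and 0 kb against 12.2 and 7.8 kb. Without pEF 1 the difference was -0.93, and with 50 kb on either side it turned to 0.25. SLC8A2, which encodes NCX2 of neurons, was called the other way, at 14.4 and 16.4 kb against 8.49 and 3.49 kb (difference 1.33 ± 0.55). That call ended without pEF 2 (0.79) and with 2-fold islands (0.27).

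**Figure D3:**
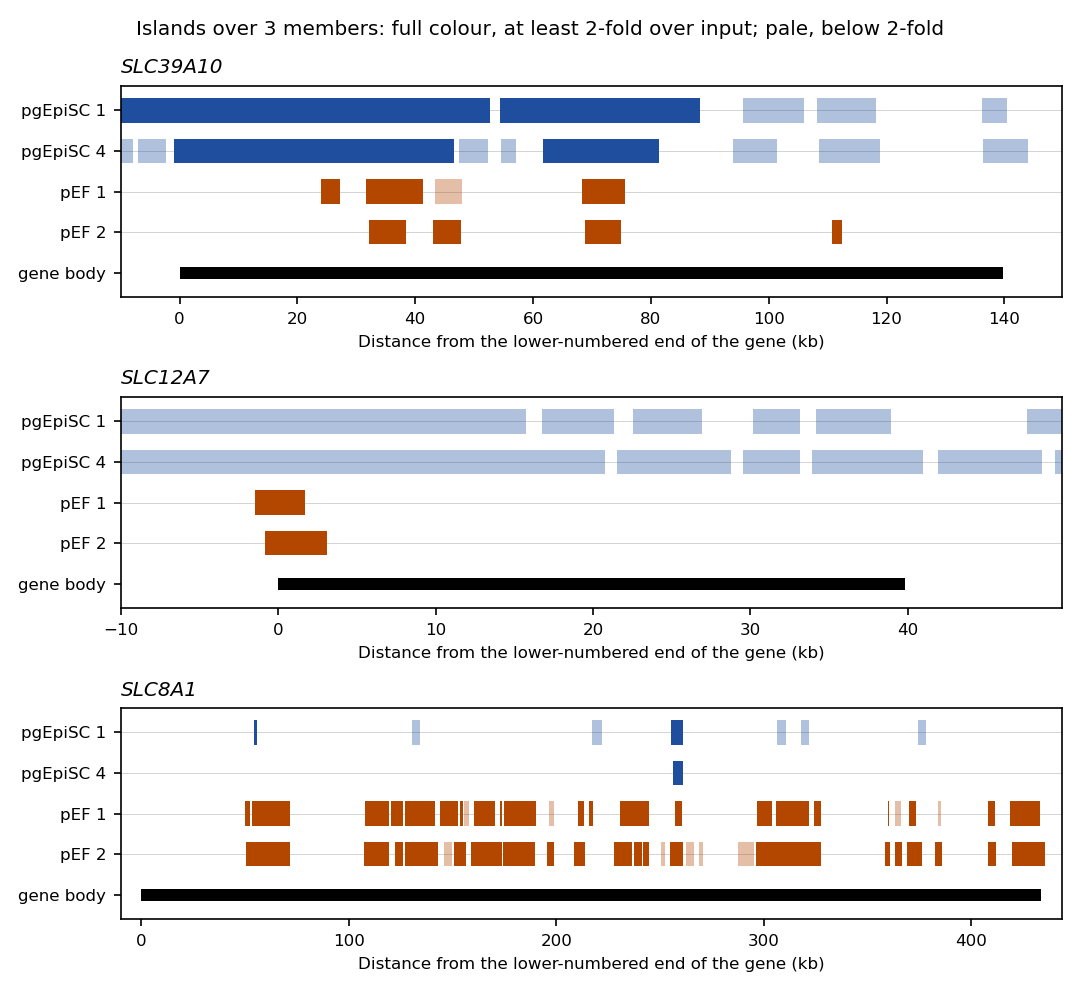
Islands over SLC39A10, SLC12A7 and SLC8A1 in the 4 libraries, plotted in kb from the lower-numbered gene end, in full colour at 2-fold or more over input and pale below that. SLC39A10 carried 2-fold islands of up to 70.6 kb in pgEpiSC, SLC12A7 carried only pale islands in pgEpiSC and a 3.2 or 4.0 kb island at a gene end in pEF, and SLC8A1 carried 25 islands in each pEF library.

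The potassium-dependent sodium-calcium exchangers of the SLC24 family differed among themselves. SLC24A2, an exchanger of cones and neurons, had 151 and 114 kb in pgEpiSC against 11.4 and 6.8 kb in pEF (difference 3.75 ± 0.39), in 23 and 21 islands against 4 and 3. Its 2-fold islands gave 61.2 and 26.8 kb against 7.0 and 6.8 kb. No other gene lay in its window. SLC24A1, the exchanger of rods, had 16.0 and 15.6 kb against 4.8 and 2.4 kb, but only 3.4 and 4.2 kb against 2.4 and 2.4 kb in 2-fold islands, where it was not called.

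SLC24A3, which is more widely used, had 0 and 1.0 kb in pgEpiSC against 3.0 and 12.2 kb in pEF (difference -2.36 ± 1.00), all in 2-fold islands. SLC24A4 was called higher in pEF with 2-fold islands only, at 0 and 0 kb against 3.2 and 2.6 kb. SLC24A5, the exchanger of pigment granules, had a single 4.0 kb in pgEpiSC 4 and nothing in the other libraries.

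Among the sodium-proton exchangers, the largest differences were at SLC9A4 and SLC9A3, both known from absorbing or secreting epithelia. Of 9 genes with the SLC9A stem, 5 were called higher in pgEpiSC and 1 in pEF, and with 2-fold islands 4 and 3. The shares over all genes were 34.2% and 11.7%, and 11.6% and 30.2% with 2-fold islands. SLC9A4, which encodes NHE4, had 17.6 and 19.2 kb in pgEpiSC, with pEF at 0 kb, and its 2-fold islands gave 8.60 and 5.2 kb. SLC9A3, which encodes NHE3 of the intestinal and renal brush border, had 37.8 and 59.1 kb against 2.0 and 2.6 kb (difference 3.88 ± 0.34), and 10.8 and 10.6 kb of this was in 2-fold islands. SLC9A2, which encodes the epithelial NHE2, had short islands only, at 2.8 and 2.4 kb against 0.4 and 0 kb. SLC9A3R1, the scaffold that binds NHE3, had 27.7 and 27.1 kb against 9.74 and 7.4 kb (difference 1.58 ± 0.18), with 23.6 and 23.6 kb in 2-fold islands.

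SLC9A5, the neuronal NHE5, was called higher in pEF at 5.4 and 6.04 kb against 11.4 and 14.6 kb (-1.05 ± 0.18). That call ended without pgEpiSC 1 (-0.98), without pEF 2 (-0.89) and with 2-fold islands (-0.79).

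SLC9A8 and SLC9A9, exchangers of endosomes and the Golgi, were not called with all islands, at 33.4 and 31.4 kb against 34.7 and 36.7 kb and at 75.8 and 80.2 kb against 98.6 and 92.2 kb. Both were called higher in pEF with 2-fold islands, at 12.4 and 6.6 kb against 34.7 and 34.7 kb and at 39.4 and 32.6 kb against 83.2 and 81.4 kb. SLC9A3R2, the second scaffold, was not called, with 20.4 to 21.7 kb in pgEpiSC and 18.6 to 19.6 kb in pEF.

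The SLC4 bicarbonate carriers had 4 of 11 genes called higher in pgEpiSC and 3 in pEF, beside 34.2% and 11.7% of all genes. With 2-fold islands none of the 11 was higher in pgEpiSC and 3 were higher in pEF, beside 11.6% and 30.2%. SLC4A4, which encodes the sodium-bicarbonate cotransporter NBCe1, had 44.6 and 35.4 kb in pgEpiSC against 112 and 144 kb in pEF (difference -1.65 ± 0.24). In 2-fold islands the gap was wider, at 8.8 and 2.0 kb against 108 and 132 kb (-4.48). None of the 4 libraries had an island at either end of SLC4A4. With all islands its acetylated length lay inside the gene, except for 0.813 kb in the flanks in pEF 2. SLC4A10, a neuronal bicarbonate carrier, had 3.0 and 5.2 kb against 12.6 and 19.2 kb (-1.73 ± 0.43), but only pEF 2 kept 2-fold islands among the pEF libraries (0 and 19.2 kb). The SLC4A10 window also holds DPP4. SLC4A1AP had 6.61 and 8.0 kb against 23.0 and 18.01 kb, in a window shared with SUPT7L and GPN1.

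In the other direction, SLC4A11, a transporter of the corneal endothelium, had 8.8 and 11.6 kb in pgEpiSC, with pEF at 0 kb, with 3.2 and 0 kb in 2-fold islands. SLC4A7, the electroneutral cotransporter NBCn1, had 52.2 and 51.5 kb against 17.0 and 30.4 kb (1.15 ± 0.40). That call ended without pEF 1 (0.75), and in 2-fold islands the difference was -0.0022. SLC4A1, the anion exchanger of red cells, had 5.0 and 5.59 kb against 1.6 and 1.2 kb, and SLC4A3 had 7.81 and 14.8 kb against 3.6 and 3.0 kb, and neither was called with 2-fold islands (0.67 and -0.53). SLC4A2, the widely used anion exchanger AE2, was close to even at 15.4 and 11.5 kb against 14.5 and 11.5 kb (difference 0.04). SLC4A5 and SLC4A8 were not called in either set. SLC4A9 was higher in pEF with 2-fold islands only, at 0 and 0 kb against 7.0 and 3.4 kb.

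Of 11 anion exchangers of the SLC26 family, 4 were called higher in pEF and 2 in pgEpiSC, beside 11.7% and 34.2% of all genes. With 2-fold islands 8 of the 11 were higher in pEF and 1 in pgEpiSC, beside 30.2% and 11.6% of all genes. SLC26A7, an anion carrier of kidney and stomach, had 8.8 and 7.4 kb in pEF and none in pgEpiSC, of which 7.4 and 5.4 kb were 2-fold. SLC26A3, the chloride-bicarbonate exchanger of the colon, had none against 5.4 and 2.8 kb, and SLC26A4, which encodes pendrin of the thyroid and inner ear, had none against 1.4 and 1.8 kb. SLC26A8, known from sperm, had 6.2 and 6.6 kb against 16.0 and 12.8 kb (-1.05 ± 0.16), in a window that also holds MAPK14, and the call ended without pEF 1 (-0.90). SLC26A3 shared its window with CBLL1, while SLC26A4 and SLC26A7 had no other gene in theirs.

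SLC26A2, the sulfate carrier needed for cartilage matrix, went the other way, with 34.4 and 24.4 kb in pgEpiSC against 5.08 and 4.88 kb in pEF (difference 2.33 ± 0.24). Its 2-fold islands gave 19.4 and 12.0 kb against 5.08 and 4.88 kb. At the lower-numbered gene end the islands were more enriched in pEF, at 8.53-fold and 5.32-fold, than in pgEpiSC, at 2.95-fold and 2.47-fold. These islands spanned 18.4 and 2.4 kb in pgEpiSC and 2.6 and 2.6 kb in pEF, so only that of pgEpiSC 1 was longer. At the other gene end pgEpiSC had islands of 10.2 kb at 1.45-fold and 3.8 kb at 1.64-fold, and pEF had none. When ChIP reads minus scaled input replaced length, the difference was 0.55, below the limit. SLC26A11, a sulfate carrier of the lysosome, had 22.3 and 29.5 kb against 5.12 and 4.32 kb (2.22 ± 0.22), and its 2-fold difference of 0.97 was just under the limit.

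SLC26A1, SLC26A6, SLC26A9 and SLC26A10 were called higher in pEF with 2-fold islands only. At SLC26A6, an exchanger of chloride and oxalate, these islands covered 0.114 and 0 kb against 8.31 and 5.51 kb, while all islands covered 13.7 and 14.2 kb against the same 8.31 and 5.51 kb. The 2-fold calls at SLC26A9 and SLC26A10 ended without pgEpiSC 4 (-0.28 and -0.51). SLC26A5, which encodes prestin of the outer hair cell, had 5.4 kb in pgEpiSC 1 and nothing in the other libraries.

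**Figure D4:**
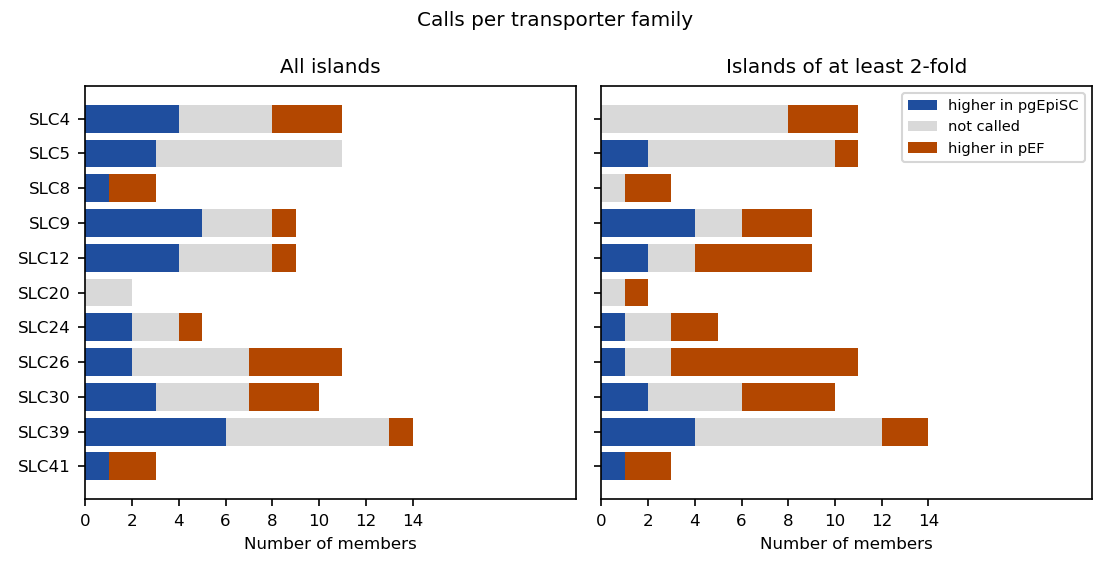
Number of genes called higher in pgEpiSC, not called and called higher in pEF in each of the 11 families, with all islands on the left and with 2-fold islands on the right. The SLC39 bar goes from 6 and 1 to 4 and 2, the SLC26 bar from 2 and 4 to 1 and 8, and the SLC4 bar from 4 and 3 to 0 and 3. The shares over all genes, not drawn, go from 34.2% and 11.7% to 11.6% and 30.2%.

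The cation-chloride cotransporters of the SLC12 family included SLC12A7 and SLC12A8, whose direction turned between the sets. All islands put 4 of 9 higher in pgEpiSC and 1 in pEF, beside 34.2% and 11.7% of all genes. With 2-fold islands the counts were 2 and 5, beside 11.6% and 30.2%. SLC12A7, which encodes the potassium-chloride cotransporter KCC4, had 44.8 and 55.6 kb in pgEpiSC against 3.2 and 4.0 kb in pEF (difference 3.47 ± 0.20). No pgEpiSC island there reached 2-fold, and both pEF islands did, so the 2-fold values were 0 and 0 kb against 3.2 and 4.0 kb. At the lower-numbered gene end the pgEpiSC islands ran over 40.6 kb at 1.90-fold (chr16:79332001-79372600, 2576 ChIP and 1425 input reads) and 31.4 kb at 1.98-fold (chr16:79346201-79377600, 3223 and 1364 reads). The pEF islands there were 3.2 kb at 11.2-fold (chr16:79355401-79358600, 817 and 95 reads) and 4.0 kb at 4.75-fold (chr16:79356001-79360000, 550 and 133 reads). The other gene end had islands of 4.8 kb at 1.32-fold and 7.0 kb at 1.25-fold in pgEpiSC, and none in pEF. SLC12A8 had the same shape, at 58.8 and 56.8 kb against 21.3 and 12.2 kb with all islands and 0 and 1.2 kb against 21.3 and 12.2 kb with 2-fold islands.

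SLC12A1, which encodes the renal NKCC2, had 17.4 and 6.91 kb against 3.2 and 4.0 kb (1.40 ± 0.62). That call ended without pgEpiSC 1 (0.79), turned to -0.18 with 50 kb on either side, and ended with 2-fold islands without pgEpiSC 4 (0.94) or pEF 2 (0.80).

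SLC12A5, which encodes the neuronal KCC2, was the family's 1 gene higher in pEF with all islands, at 1.4 and 1.8 kb against 4.67 and 4.4 kb (-1.09 ± 0.12), and the call ended without pgEpiSC 1 (-0.98). SLC12A2, the widely used NKCC1, had 31.3 and 10.6 kb against 15.3 and 12.9 kb and was not called, since the pgEpiSC libraries lay on both sides of pEF. Without pgEpiSC 4 it was called at 1.101. SLC12A3, the renal sodium-chloride cotransporter, had 24.6 and 25.0 kb against 14.2 and 13.0 kb with all islands, and 0 and 0 kb against 11.4 and 10.6 kb with 2-fold islands. SLC12A4, which encodes KCC1, was also higher in pEF only with 2-fold islands, at 5.6 and 3.6 kb against 14.2 and 13.6 kb. SLC12A9 was not called, at 31.1 and 30.9 kb against 20.6 and 16.4 kb.

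The sodium-coupled carriers of the SLC5 family take up sugars, vitamins, iodide and choline. Of 11 genes, 3 were called higher in pgEpiSC and none in pEF, beside 34.2% and 11.7% of all genes. With 2-fold islands the counts were 2 and 1, beside 11.6% and 30.2%. SLC5A7, the choline carrier of cholinergic neurons, had 7.09 and 8.89 kb in pgEpiSC against 1.8 and 0 kb in pEF (2.42 ± 0.76), and 7.09 and 3.49 kb of this was 2-fold. None of it lay in the gene body, where the difference was 0. SLC5A5, the sodium-iodide symporter of the thyroid, had 4.69 and 5.29 kb against 0.886 and 1.29 kb (1.53 ± 0.16), all in 2-fold islands. SLC5A10 had 60.5 and 57.3 kb against 5.4 and 5.0 kb (3.27 ± 0.06), but its 2-fold islands gave 6.92 and 1.4 kb against the same 5.4 and 5.0 kb. Its window also holds GRAP, FAM83G and PRPSAP2.

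SLC5A6, the vitamin carrier for biotin and pantothenate, was not called, at 13.5 and 9.8 kb against 10.7 and 8.74 kb. SLC5A1, the intestinal glucose cotransporter SGLT1, had 25.0 and 17.6 kb against 16.0 and 21 kb, and SLC5A2, the renal SGLT2, had 7.42 and 6.82 kb against 6.02 and 3.22 kb. SLC5A3, the inositol carrier, had 6.72 and 10.7 kb against 5.6 and 11.9 kb. SLC5A9 was called higher in pEF with 2-fold islands only, at 0 and 0 kb against 11.4 and 7.6 kb. At SLC5A8 only pgEpiSC 4 (2.8 kb) and pEF 1 (1.0 kb) had an island. The windows of SLC5A1 and SLC5A4 overlap, the only such overlap among the 88 genes.

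The phosphate carriers SLC20A1 and SLC20A2 were not called with all islands. SLC20A1 had 25.6 and 18.6 kb against 13.9 and 10.7 kb (0.79 ± 0.28) and was called at 1.01 without pgEpiSC 4. SLC20A2 had 49.2 and 53.6 kb against 64.4 and 55.8 kb, and its 2-fold islands put it higher in pEF, at 24.2 and 25.2 kb against 55.0 and 55.8 kb.

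Islands at gene ends gave a measure of presence that length does not. The gene table used has no strand, so a window of 2 kb around either end of a gene stood in for the promoter. Such an end island was present in all 4 libraries at 48 of the 88 genes (54.5%), against 68.6% of all genes, and in none at 15 (17.0%), against 9.53%. It was present in both pgEpiSC libraries and neither pEF library at 11 genes (12.5%), beside 7.41% of all genes, and in both pEF libraries and neither pgEpiSC library at 5 (5.68%), beside 4.29%. The other 9 genes were mixed.

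The 11 genes with an end island only in pgEpiSC came from 7 families. They were the zinc carriers SLC39A2, SLC39A5, SLC39A10 and SLC30A2, the ion carriers SLC24A2, SLC9A3, SLC4A11 and SLC26A9, and the sodium-coupled carriers SLC5A2, SLC5A7 and SLC5A10. At SLC39A2 the end islands were 7.8 kb at 2.64-fold (chr7:78127601-78135400) and 5.8 kb at 3.06-fold. At the lower-numbered end of SLC9A3 they were 3.2 kb at 1.80-fold (chr16:79623001-79626200) and 4.8 kb at 1.52-fold, so this end was marked at lower enrichment. At SLC26A9 they were 2.6 kb at 2.25-fold and 2.2 kb at 1.61-fold, although its total length was 2.6 and 2.2 kb against 4.0 and 2.8 kb in pEF, where the islands lay away from the ends. At SLC39A5 the end islands were 1.52-fold and 1.43-fold, and its total length of 11.3 and 8.73 kb against 5.93 and 6.33 kb was not called.

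The 5 genes with an end island only in pEF were SLC8A1, SLC8A3, SLC30A4, SLC4A10 and SLC12A1. At SLC8A1 the end islands were 14.2 kb at 8.52-fold (chr3:100242401-100256600, 3455 ChIP and 529 input reads) and 16.0 kb at 6.88-fold. At SLC30A4 they were 1.8 kb at 12.0-fold (chr1:126236201-126238000) and 2.0 kb at 5.26-fold, and at SLC8A3 4.8 kb at 6.22-fold and 4.2 kb at 6.36-fold. SLC12A1 is the exception to its own length, with 2.4 kb at 2.58-fold and 2.0 kb at 1.45-fold at a gene end in pEF, while its longest pgEpiSC islands lay inside the gene. With 2-fold islands the count for pgEpiSC became 5, beside 2.03% of all genes, and that for pEF 10, beside 12.4%. SLC24A2, SLC30A2, SLC39A2, SLC39A10 and SLC5A2 then had an end island only in pgEpiSC, and SLC12A3, SLC12A7, SLC26A1, SLC26A6, SLC30A4, SLC39A4, SLC41A1, SLC4A9, SLC8A1 and SLC8A3 only in pEF. Without pgEpiSC 4 the count for pEF was 8 with all islands.

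Most acetylated length over these genes lay inside the gene bodies, which also make up most of the windows. The median window was 58.5 kb, with flanks of 10 kb on either side. The shares below are not set against the sequence in each zone, so they do not measure enrichment. The share inside a gene and more than 2 kb from its ends was 65.0% and 64.9% in pgEpiSC and 66.6% and 68.9% in pEF. End windows held 15.3% and 15.1% against 16.2% and 14.99%, and the flanks 19.7% and 20.02% against 17.1% and 16.1%. Over the genes called higher in pgEpiSC the inside share was 72.0% and 71.0% in pgEpiSC, and over those called higher in pEF it was 80.5% and 83.9% in pEF, of which SLC8A1 and SLC4A4 hold much.

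Islands in a window can belong to a neighbouring gene. No other gene lay in the window of 27 of the 88 genes, and up to 5 did at SLC4A2. Of the genes called the same way in both sets, 5 of the 17 higher in pgEpiSC (SLC24A2, SLC30A9, SLC39A8, SLC5A7 and SLC9A4) and 10 of the 15 higher in pEF had no other gene in the window. SLC39A10 shares its window with DNAH7, SLC41A3 with ZXDC and ALDH1L1, SLC26A2 with HMGXB3 and SLC39A2 with NDRG2 and METTL17. Whether the islands act on the carrier or on the neighbour was not tested.

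Genes that work beside these carriers were read from 6 lists chosen by function, and the members named here were picked after their values were seen. The counts of all 6 lists stand beside 34.2% of all genes higher in pgEpiSC and 11.7% in pEF. With 2-fold islands these shares were 11.6% and 30.2%. Among magnesium and phosphate genes, 11 of 20 were on the pgEpiSC side and 4 on the pEF side, with a median difference of 1.21 beside 0.49 over all genes, but 2 and 3 with 2-fold islands and a median of -0.46 beside -0.29. ALPL, alkaline phosphatase and a long-used marker of pluripotent cells, had 36.8 and 32.8 kb against 0.8 and 0.8 kb, of which 0 and 1.6 kb were 2-fold in pgEpiSC. CNNM2, a magnesium transport protein, had 28.8 and 26.0 kb against 62.6 and 65.6 kb. Among zinc buffering and sensing genes, 3 of 9 were on the pgEpiSC side and 2 on the pEF side, with 1 and 4 in 2-fold islands and medians of 0.40 and -1.44. MTF1, the zinc-sensing transcription factor known to act on SLC30A1, had 10.6 and 12.6 kb against 25.0 and 28.2 kb, and MT1A, a metallothionein, had 6.2 and 7.8 kb in pEF and none in pgEpiSC. TMEM163, a zinc exporter of vesicles, had 180 and 172 kb against 7.0 and 6.2 kb, with 46.8 and 82.0 kb in 2-fold islands.

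Ion pumps had 7 of 20 genes higher in pgEpiSC and 1 in pEF, beside 34.2% and 11.7% of all genes. With 2-fold islands the counts were 0 and 8, beside 11.6% and 30.2%. The medians were 0.68 and -0.46, beside 0.49 and -0.29 over all genes. ATP2B1, a plasma membrane calcium pump that works beside SLC8A1, had 30.8 and 23.4 kb against 5.2 and 3.8 kb, opposite in direction to SLC8A1, but its 2-fold islands gave 7.4 and 5.8 kb against the same 5.2 and 3.8 kb. Regulators of the cotransporters and exchangers had 5 of 21 genes higher in pgEpiSC and 3 in pEF, and 1 and 8 with 2-fold islands, with medians of 0.00 and -0.97. OXSR1, a kinase that phosphorylates SLC12 proteins, had 6.6 and 7.8 kb against 29.0 and 23.4 kb, and the kinase gene SGK1 had 8.6 and 3.8 kb against 16.4 and 47.0 kb.

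Bicarbonate, lactate and acid handling had 6 of 16 genes higher in pgEpiSC and 1 in pEF, beside 34.2% and 11.7% of all genes. With 2-fold islands the counts were 2 and 3, beside 11.6% and 30.2%. The medians were 0.78 and 0, beside 0.49 and -0.29 over all genes. The lactate carrier genes SLC16A1 and SLC16A3 had 39.0 and 35.3 kb against 3.8 and 3.6 kb and 20.4 and 22.9 kb against 4.8 and 4.2 kb, called in both sets, and CA12, a membrane carbonic anhydrase, had 11.2 and 20.8 kb against 35.2 and 35.6 kb. Copper, iron and manganese handling had 5 of 22 higher in pgEpiSC and 4 in pEF, and 3 and 6 with 2-fold islands, with medians of 0.18 and -0.69. ATP7B, a copper pump, had 33.1 and 40.9 kb against 1.8 and 4.67 kb, and SLC40A1, the iron exporter ferroportin, had 5.2 and 3.2 kb against 16.8 and 17.4 kb.

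The labelled cell types were checked on marker genes. All 10 epiblast markers were higher in pgEpiSC, 9 of them also with 2-fold islands, and of 11 fibroblast markers 7 were higher in pEF, 10 with 2-fold islands, and none in pgEpiSC. Their summed length was 302 and 299 kb against 43.7 and 46.7 kb for the epiblast list and 211 and 199 kb against 503 and 480 kb for the fibroblast list. Markers of other cell types were mixed. In the order higher in pgEpiSC, then in pEF, the counts were 4 and 0 of 5 endothelial markers (summed length 78.9 and 70.3 kb against 15.6 and 23.4 kb), 1 and 1 of 5 blood markers (78.4 and 75.7 against 187 and 182), 3 and 1 of 5 hypoblast and endoderm markers (55.5 and 46.3 against 23.2 and 27), 1 and 2 of 4 trophectoderm markers (15.4 and 16.8 against 45.0 and 40.4), 1 and 0 of 5 neural markers (212 and 205 against 83.5 and 57.7) and 1 and 0 of 4 skeletal muscle markers (22.3 and 28.3 against 30.4 and 40.8). With 2-fold islands the 4 and 0 endothelial calls became 0 and 2, the 3 and 1 hypoblast and endoderm calls 0 and 2, the 1 and 2 trophectoderm calls 0 and 2, the 1 and 0 neural calls 1 and 1, and the 1 and 0 skeletal muscle calls 0 and 3, while the blood calls were 1 and 1 again. KDR, CD34, SOX17, CDX2, NEUROD1, SOX1 and MYOD1, defining genes of these other types, had no island in any library. Other genes of these lists did have islands: PECAM1 had 34.3 and 37.1 kb against 9.4 and 16.4 kb, FOXA2 22.7 and 20.1 kb with pEF at 0 kb, PTPRC 37.4 and 15 kb against 0 and 6.0 kb, and RUNX1 22.4 and 34.2 kb against 168 and 155 kb. The part of other cell types in the differences above was not tested.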

How the data were processed

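H3K27ac ChIP-seq was deposited as 1 island list for each of 4 ChIP libraries, and the 4 inputs appear only as reads inside those lists. Per the labels, chromatin of 200 to 500 bp was sequenced as 150 bp paired-end reads. BWA 0.7.15, SAMtools 0.1.19 and SICER 1.1 are named per the submitters' processing notes, and no genome build is named there. The deposited lists have no header and 8 columns in the layout of a SICER summary. Their count columns hold the authors' ChIP and input reads per island. Their fold column is the authors' ratio of ChIP to input reads scaled to library size. Their p-value columns hold the authors' p-value and FDR per island, and the FDR reached 1, so no FDR limit had been applied. The labels put the mean over the ChIP-seq libraries at 121 M raw reads, of which 116 M were of high quality. Duplicate and mapping filters, and the total reads of each library, are not given in the sources used here.

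Islands were joined to gene intervals of RefSeq Sscrofa11.1, used for symbols and overlap because on 18 of 18 chromosomes more gene ends fell in islands than points shifted by 20 kb (48.8% to 64.9% against 27.5% to 46.0%). No gene coordinate is printed. The table has no strand, so windows of 2 kb around both gene ends replaced the planned start windows, and the planned promoter sequences are not shown.

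The genes, lists and rules were chosen with earlier results of these data known. The naming rule took 12 fixed genes, the called gene with the largest difference per family and direction (19) and every gene with a type-specific end island (16), 35 in all. Other members were picked after their values were seen, and the values of some genes, which stay in all counts, are not reported here. The 6 pathway lists and 8 marker lists (epiblast, fibroblast, endothelial, blood, hypoblast and endoderm, trophectoderm, neural, skeletal muscle) leave out the 88 genes. Python 3.11.15, numpy 2.4.6, pandas 2.3.3 and matplotlib 3.10.9 were used. Overlap functions were tested on simulated islands in 3000 checks with 0 wrong. Alternatives were the 2-fold and FDR filters, other windows, pseudocounts, centring, read counts and each library left out.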

Additional observations from a re-analysis of the deposited data

How the results depend on the processing

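The count of genes higher in pgEpiSC, 31, and the count higher in pEF, 18, became 17 and 33 with 2-fold islands, where the median difference turned from 0.36 to -0.49. They became 17 and 35, beside 16.2% and 32.6% of all genes, with a median of -0.44 beside -0.44 over all genes, when ChIP reads minus scaled input, per island read of the library, replaced length, an alternative chosen after seeing the data. Centring turned the median to -0.28. The count for pEF was 10 with 50 kb on either side, beside 10.6% of all genes, and 9 with a pseudocount of 5 kb, beside 7.04%. Among the called genes named by the rule and reported here, differences that turned with 2-fold islands were -2.20 at SLC12A7, -0.51 at SLC5A10 and -0.0022 at SLC4A7. With 50 kb on either side those of these genes that turned were -0.18 at SLC12A1, 0.029 at SLC30A4, 0.87 at SLC39A3 and 0.25 at SLC8A3. With ChIP minus scaled input SLC8A2 of these genes turned, to -0.40. The cause of these turns was not tested. End islands only in pgEpiSC and only in pEF, 11 and 5, became 5 and 10 with 2-fold islands, beside 2.03% and 12.4% of all genes. Leaving out each library in turn gave 29 to 34 genes higher in pgEpiSC, 16 to 21 higher in pEF, a median of 0.36 to 0.46, and 11 to 12 and 5 to 8 end islands, the 8 without pgEpiSC 4. Of the genes named by the rule and reported here, SLC24A2, SLC24A3, SLC26A7, SLC39A2, SLC39A10, SLC41A1, SLC41A3, SLC8A1, SLC9A3 and SLC9A4 kept their call in all 13 settings run on single genes. No paired analysis was possible because the types share only 1 replicate number (1 and 4 against 1 and 2). Island reads and not whole libraries are listed, so absence of an island says only that none was called at this depth and enrichment.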

Other observations

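Relatives outside the symbol rule, picked after their values were seen, gave lengths in the same order of libraries. On chromosome X, SLC9A7, a sodium-proton exchanger of the Golgi, had 5.6 and 8.2 kb in pgEpiSC against 1.8 and 1.6 kb in pEF. SLC34A2, a sodium-phosphate cotransporter of epithelia, had 12.1 and 11.5 kb in pgEpiSC, with pEF at 0 kb, and SLC9B2 had 17.2 and 12.4 kb against 2.8 and 2.6 kb.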
